A study of Mus musculus with 5 samples.

Results

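In the library taken at 72 h from co-cultures with suppressor cells, 1272 of 4942 CD8+ T cells (25.7%) carried transcripts of H2-Eb1, the gene of the beta chain of the MHC class II molecule I-E, and these cells are described here. They were selected by a single rule, a deposited H2-Eb1 value above 0, and were set against the 3670 cells of the same library at 0, out of 13629 cells in the whole series. The cells with H2-Eb1 held more transcripts of the creatine kinase gene Ckmt1, of Ahnak2, Robo3, Ak1, Cd68 and Perp, and fewer of Gzma and of the metallothioneins. Of the genes measured at 5 CPM or more, 7 of 21 of cholesterol synthesis, 3 of 17 of glycolysis and 5 of 19 of the integrated stress response were 1.5-fold lower, against 0.944% of all genes at that level. Of 6 dendritic cell markers at 5 CPM or more, 1, Cd80, was 1.5-fold higher, against 3.08% of all genes at that level. The median log2 ratio of the 6 was 0.07. The other class II genes at that level, 7 in number, all lay higher in these cells, around a median log2 ratio of 0.42. Even so, 62.8% of these cells had no detected transcript of H2-Ab1, H2-Aa or Cd74.

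The study followed mouse OT-I CD8+ T cells (strain C57BL/6-Tg(TcraTcrb)1100Mjb/J, whose transgenic receptor recognises the ovalbumin peptide SIINFEKL) from spleen and lymph nodes. Cells were sorted before stimulation (0 h) and at 24 h and 72 h of co-culture with SIINFEKL-pulsed dendritic cells (DCs), with or without myeloid-derived suppressor cells (MDSCs), which are immature myeloid cells that can hold T cell responses back. All cells carry the transgenic receptor, all stimulated groups had DCs, and the groups differ in time and in the inclusion of MDSCs. Each of the 5 groups was 1 library on the 10x droplet platform, with no replicate, so no test was possible and every difference below is a description of single libraries.

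MHC class II molecules present peptides to CD4+ T cells. They pair an alpha with a beta chain (H2-Aa with H2-Ab1 for I-A, and an I-E alpha chain with H2-Eb1 for I-E), fold on the invariant chain Cd74, and receive peptide with the help of H2-DM, which H2-O restrains. DCs, macrophages and B cells transcribe these genes together under the coactivator CIITA, which acts through promoter boxes bound by RFX and NF-Y, whereas mouse T cells are not generally known for them. C57BL/6 mice do not display I-E, since they do not express its alpha chain gene. H2-Eb1 lies at chr17:34305867-34316674 on the plus strand (GRCm38, GENCODE M21), in the same gene cluster as H2-Aa (chr17:34282744-34287823, minus strand) and H2-Ab1 (chr17:34257689-34269419, plus strand).

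The promoters of the class II genes H2-Eb1, H2-Aa and H2-Oa are shown as examples. Over all cells of the 72 h library with MDSCs, H2-Eb1 stood at 33.8 CPM, H2-Oa at 33.9 CPM and H2-Aa at 0.292 CPM. The windows hold 250 bases before to 50 after the gene start (RefSeq table, GRCm38.p6), 5′ to 3′ on the strand of the gene, at chr17:34305617-34305916 (plus), chr17:34287774-34288073 (minus) and chr17:34092129-34092428 (plus). Capitals mark the letters ATTGG or, on the other strand, CCAAT, the core of the Y box bound by NF-Y.
H2-Eb1: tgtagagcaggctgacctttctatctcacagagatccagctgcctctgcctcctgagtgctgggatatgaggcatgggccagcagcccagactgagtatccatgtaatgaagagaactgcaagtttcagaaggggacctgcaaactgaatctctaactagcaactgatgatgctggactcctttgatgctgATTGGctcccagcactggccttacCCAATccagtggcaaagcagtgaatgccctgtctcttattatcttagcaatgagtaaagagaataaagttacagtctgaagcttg
H2-Aa: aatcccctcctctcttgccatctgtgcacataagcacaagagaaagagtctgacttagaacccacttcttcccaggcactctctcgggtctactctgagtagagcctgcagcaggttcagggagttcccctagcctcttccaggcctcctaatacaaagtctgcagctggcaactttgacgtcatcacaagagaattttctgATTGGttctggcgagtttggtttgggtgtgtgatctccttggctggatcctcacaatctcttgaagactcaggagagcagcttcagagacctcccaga
H2-Oa: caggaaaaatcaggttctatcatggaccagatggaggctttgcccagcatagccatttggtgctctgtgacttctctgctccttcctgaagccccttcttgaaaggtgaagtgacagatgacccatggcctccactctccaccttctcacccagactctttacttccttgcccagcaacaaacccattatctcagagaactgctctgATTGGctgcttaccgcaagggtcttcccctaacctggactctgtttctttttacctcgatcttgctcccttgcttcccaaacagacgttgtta
Each of the 3 windows held the longer form CTGATTGG (CCAATCAG on the other strand), which contains the core and was in 4.10% of the 32851 promoter windows of that length in the table, while the core alone was in 37.4%. Its ATTGG began 59 bases before the start of H2-Eb1, 48 before that of H2-Aa and 43 before that of H2-Oa, and the H2-Eb1 window held a further CCAAT 35 bases before the start. The 2 windows of H2-DMa in the table did not hold the longer form, and 1 of them held the core. A match of letters is a description and shows no binding.

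Values are whole numbers per gene and cell that the authors had adjusted to a nearly constant total per cell, so they are not molecule counts. A level is the sum of a gene's adjusted values over a set of cells per 1000000 of that set's total (adjusted CPM), and a gene was counted as higher or lower when levels differed 1.5-fold at 20 CPM or more in either set. The 72 h library with MDSCs had a median of 3121 genes above 0 per cell. The 0 h library stood apart: among rarely found genes, 26.3% of its values above 0 equalled 1, against 95.2 to 96.8% in the other libraries. Any pair of libraries shared 7 to 18 cell barcodes. The 2 libraries of 72 h shared 17, of which 4 were H2-Eb1 cells with MDSCs.

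H2-Eb1 chose the cells, so its own values are given only to describe the choice. In the cells above 0 the adjusted value was 1 in 712 cells, 2 in 237 and 3 or more in 323, with a mean of 2.10 and a highest value of 16. The cells just inside the threshold were therefore those at 1 and the cells just outside those at 0. The level was 131 CPM over the selected cells and 33.8 CPM over the library. At 72 h without MDSCs, 31 of 1926 cells (1.61%, 95% interval 1.10 to 2.28) were above 0, at 1.21 CPM. At 24 h the share was 1.54% with DCs (24 of 1562 cells) and 0.757% with DCs and MDSCs (17 of 2247), and at 0 h it was 0.237% (7 of 2952). The share at 72 h with MDSCs had an interval of 24.5 to 27%, above those of the other libraries. All intervals are exact (Clopper-Pearson), and the limit given beside 0 cells is instead 3 cells of the total. Both cover counting error only, not differences between cultures.

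The other class II genes were spread over the libraries in other ways. H2-Ab1, the beta chain of I-A, reached 88.6% of cells at 72 h without MDSCs (251 CPM) but 19.5% with MDSCs (15.3 CPM). H2-Eb1 and H2-Ab1 thus had opposite orders in the 2 libraries of 72 h. H2-Aa, the alpha chain of I-A, was above 0 in under 1% of the cells of every library and in 21 cells (0.425%) at 72 h with MDSCs. Cd74 was above 0 in 20.5 and 23.7% of cells in the 24 h libraries without and with MDSCs, where H2-Eb1 was rare, and in 13% at 72 h with MDSCs.

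**Figure D1:**
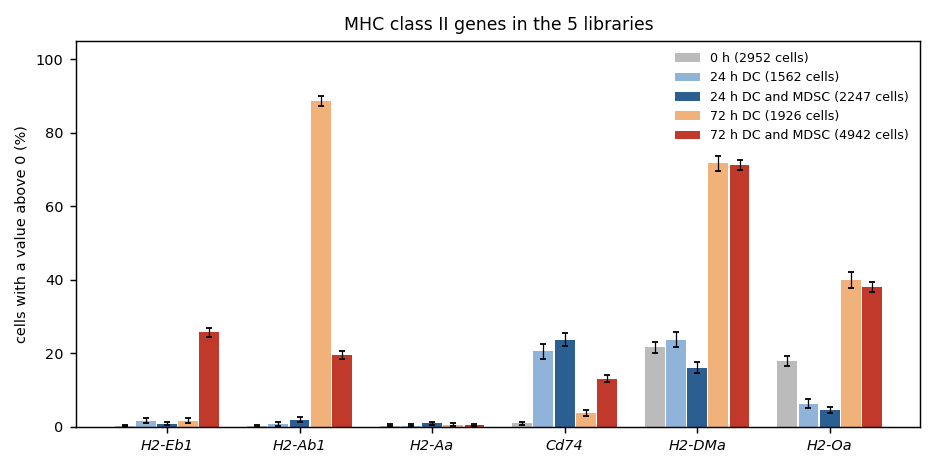
Share of cells with a value above 0 (y axis, percent) for 6 MHC class II genes in each of the 5 libraries, with exact 95% intervals for counting error. The libraries of 24 h and 72 h come from tables that the authors adjusted separately, and 0 h from the table of all time points. H2-Eb1 reached 25.7% with MDSCs at 72 h and 1.61% without, and H2-Ab1 had the opposite order, at 19.5 and 88.6%.

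Within the library with MDSCs, the remaining class II genes lay somewhat higher in the cells with H2-Eb1. Of 12 genes listed, 9 were measured and 7 besides H2-Eb1 stood at 5 CPM or more. All 7 lay above 0 on the log2 scale, around a median log2 ratio of 0.42, and 2 of them passed 1.5-fold, both higher. Over all 8053 genes at 5 CPM or more the median was -0.03, and 248 genes (3.08%) were 1.5-fold higher and 76 (0.944%) lower.

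The alpha chain genes of I-E, the partner of H2-Eb1, were not analysed here, and that of I-A was nearly missing. H2-Aa was above 0 in 15 of the 1272 cells with H2-Eb1 (1.18%) and in 6 of the other 3670 (0.163%), at 0.84 and 0.10 CPM, both far under the level at which ratios were read. H2-Ab1 was above 0 in 21.8% of the cells with H2-Eb1 and in 18.7% of the others, at 17.1 and 14.7 CPM. Seen from H2-Ab1, 28.8% of the cells above 0 for it had H2-Eb1, against 25% of the cells at 0. The invariant chain gene Cd74 was above 0 in 19.3% against 10.8% of cells, at 25.3 and 11.7 CPM, a log2 ratio of 1.11. Cells with none of H2-Ab1, H2-Aa and Cd74 above 0 made up 62.8% of the H2-Eb1 cells and 72.5% of the others, and 2 cells in each set had all 3. Most cells with H2-Eb1 transcripts therefore had no detected transcript of the chains it is usually transcribed with. In sparse values a 0 means not detected at this depth.

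The genes of the peptide exchange factors followed at smaller size. H2-DMa, the alpha chain of H2-DM, stood at 113 CPM in the cells with H2-Eb1 and 85.6 CPM in the others (log2 ratio 0.40). Its partners H2-DMb2 (10.9 and 8.19 CPM) and H2-DMb1 (5.71 and 5.11 CPM) had log2 ratios of 0.42 and 0.16. For H2-O, the restraint on H2-DM, the alpha chain gene H2-Oa stood at 42.9 and 30.9 CPM (log2 ratio 0.47) and the beta chain gene H2-Ob at 6.64 and 3.64 CPM (log2 ratio 0.87). H2-Ob and Cd74 were the 2 genes of this list past 1.5-fold.

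The transcription factors of class II genes did not differ at that size. Of 8 measured, 7 stood at 5 CPM or more, 0 were past 1.5-fold in either direction, and their median log2 ratio was -0.21. With 3.08% higher and 0.944% lower among all genes at that level, 0 of 7 says little of these factors. Ciita, the coactivator, was above 0 in 0.943% of the H2-Eb1 cells and 0.790% of the others. Rfx5, a subunit of RFX, had a log2 ratio of 0.35, while its partners Rfxap and Rfxank had -0.22 and -0.16. Of the NF-Y subunits, Nfyb had a log2 ratio of 0.17, Nfya of -0.21 and Nfyc of -0.36, and Creb1, which binds the X box region, had -0.24. Genes of MHC class I and of its peptide loading also stayed between the thresholds, all 18 of them, with H2-K1 at 524 and 564 CPM and B2m, the light chain, at 2775 and 2687 CPM.

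Position near H2-Eb1 went with little. Of the 37 genes at 5 CPM or more that start within 500 kb of it, 2 were 1.5-fold higher and 0 lower, around a median of 0.05 (log2). The 2 genes, named after their values were seen, were H2-Ob and Kank3 (12.4 and 6.4 CPM), against the 3.08% higher among all genes at that level.

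Dendritic cell markers were examined next, since DCs carry class II molecules and were present in every stimulated culture. Of 30 markers 16 were measured, and 6 stood at 5 CPM or more: Batf3, Cst3, Cd80, Ifi30, Naaa and Ctss. The median log2 ratio of these 6 was 0.07, and 1 was 1.5-fold higher and 0 lower. Among all genes at that level 3.08% were higher and 0.944% lower. Cst3, the protease inhibitor cystatin C, stood at 160 CPM in the cells with H2-Eb1 and 153 CPM in the others. Batf3, a factor of cross-presenting DCs that activated T cells also transcribe, stood at 76.9 and 83.8 CPM. Ifi30, a lysosomal thiol reductase, stood at 35.9 and 34.8 CPM, and Ctss, a cathepsin that trims the invariant chain, at 55.5 and 43.8 CPM.

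Cd80, a costimulatory ligand also found on activated T cells, was the marker past 1.5-fold, at 16 and 8.82 CPM and above 0 in 21.6% against 12.2% of cells. Markers that define DCs were at or near 0 in both sets. Itgax, the integrin CD11c, was above 0 in 0 of the 1272 cells with H2-Eb1, which allows a share of up to 0.236%, and in 0.109% of the others. Zbtb46, Wdfy4, Ccl17, Cd86, Il4i1 and Fscn1 were each under 1 CPM in both sets. Ctsh, a cathepsin of antigen-presenting cells, was above 0 in 26 cells with H2-Eb1 (2.04%) and 4 others (0.109%), at 1.53 and 0.07 CPM. Its level was too low for a ratio to be read, and none of the 15 cells with both H2-Eb1 and H2-Aa had it.

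Counted per cell, few cells carried several DC markers. Over the 12 markers found in at most 20% of the library, 3 or more were above 0 in 4 cells with H2-Eb1 (0.314%) and in 12 others (0.327%). At 1 or more markers the shares were 37.7 and 27.2%, and with Cd80 left out of the list they were 20.5 and 17.4%. At 2 or more markers the shares were 5.74 and 3.65%, and with Cd80 left out of the list they were 1.57 and 1.47%. With all 16 measured markers, which include Cst3, Batf3 and Ctss, 60.1 and 52.1% of cells had 3 or more. The 4 cells with 3 markers were thus no larger a share than among cells without H2-Eb1, and the excess at 2 markers was small once Cd80 was left out.

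Markers of other cells that a culture or sort could hold gave a similar picture, apart from Cd68. Of 18 macrophage and monocyte markers 8 were measured. Cd68, a lysosomal glycoprotein, stood at 38.6 and 11.1 CPM and was above 0 in 35.0% against 13.4% of cells, whereas Lyz2, the lysozyme of macrophages and granulocytes, was above 0 in 0.157 and 0.136%. The chemokine receptor gene Ccr2 was above 0 in 1.02% against 2.89% of cells, and the other 5 measured markers were under 1 CPM in both sets, Nos2 at 0 in both. Of 16 granulocyte markers 4 were measured, all under 1 CPM, and 2.04 and 1.85% of cells had 1 or more. Of 11 B cell markers 3 were measured, and of these Cd79b, a chain of the B cell receptor complex, was above 0 in 36.7 and 29.1% of cells and Cd79a in 0.157 and 0.0817%. Cells in which 3 or more markers of any 1 other type were above 0 made up 0.550% of those with H2-Eb1 and 0.654% of the others. This count used markers found in at most 20% of the library. Only 2 B cell markers were among them, so no cell could count as a B cell. With 4 granulocyte, 3 CD4 T cell and 3 erythroid and platelet markers, it says little of those types either. Several markers of these lists were not analysed here.

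**Figure D2:**
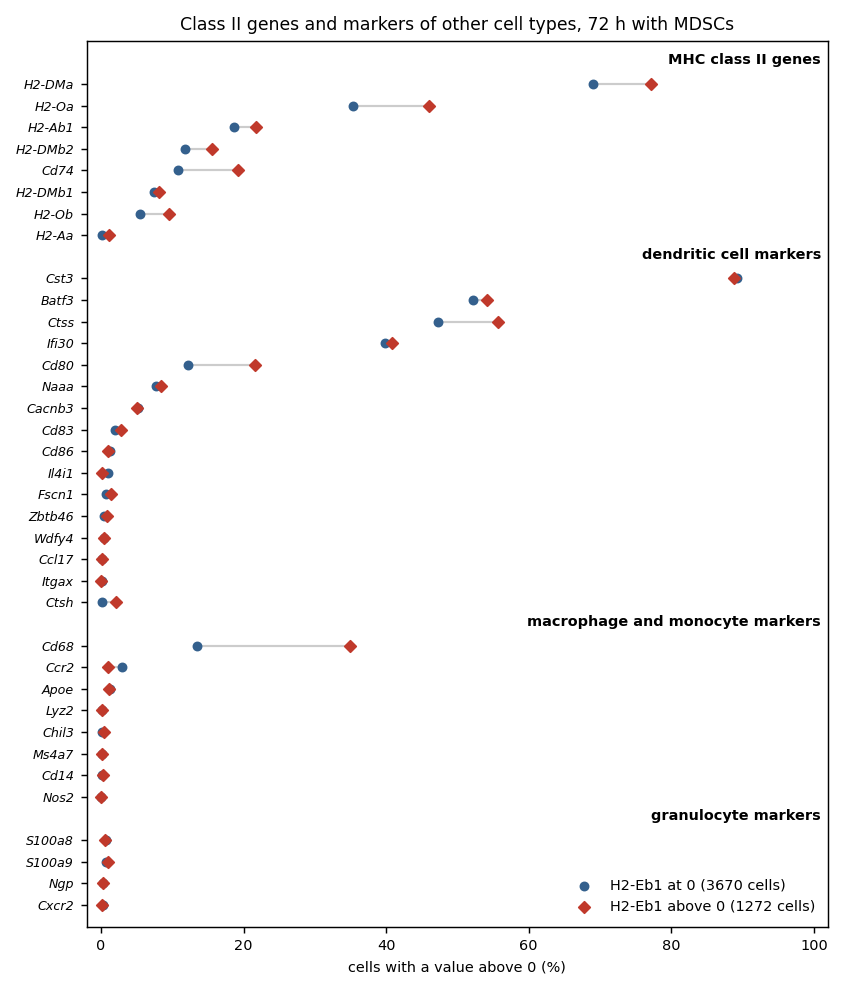
Share of cells with a value above 0 (x axis, percent) in the 1272 cells with H2-Eb1 (red diamonds) and the 3670 cells without (blue circles) for the measured class II genes and markers of dendritic cells, macrophages and granulocytes. Cd68, Cd80, H2-Oa and Cd74 are separated, at 35.0 and 13.4% for Cd68, while Cst3 and Batf3 lie close together and Lyz2, Itgax and S100a8 lie near 0 in both sets.

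The selected cells were CD8 T cells by their own transcripts. Cd8a was above 0 in 99.7% of them and 99.8% of the others, Cd8b1 in 100% and 99.9%, and the CD3 chain gene Cd3e in 92.2 and 90.4%. Of the 14 receptor and CD8 genes at 5 CPM or more, 0 were past 1.5-fold. The 15 cells with both H2-Eb1 and H2-Aa all had Cd8a and Cd8b1. Cells with H2-Eb1 had a median of 3137.5 other genes above 0, and cells without it 3115. H2-Eb1 was above 0 in 26.5, 24.1 and 26.7% of the cells when the library was cut into 3 equal sets, from the fewest to the most genes above 0. Ribosomal protein genes took a median of 41.3% of a cell's total with H2-Eb1 and 38.7% without, and its part in the differences below was not tested beyond the other totals given with the counts. Mitochondrially encoded genes took 1.82 and 1.86%.

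Most genes differed little between the sets. Of 4310 genes at 20 CPM or more, 97.1% lay within 1.5-fold, 83 (1.93%) were higher in the cells with H2-Eb1 and 43 (0.998%) lower, around a median log2 ratio of -0.07. With a total that left out ribosomal protein and mitochondrial genes, 167 were higher and 31 lower, and with ratios centred on their median 107 and 25, so the split between directions depends on the scale. Averaged over the 3 sets of genes above 0 per cell, 81 of the 83 and 42 of the 43 were called again.

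The gene with the largest ratio was Ckmt1, a mitochondrial creatine kinase that moves phosphate from ATP to creatine. It stood at 64.1 CPM in the cells with H2-Eb1 and 9.25 CPM in the others (log2 ratio 2.79), above 0 in 42.0% against 10.4% of cells. Ak1, an adenylate kinase that also moves phosphate between nucleotides, stood at 39.4 and 9.97 CPM. Cox6b2, an isoform of a cytochrome oxidase subunit known from testis, stood at 536 and 209 CPM, and Ldhb, the B chain of lactate dehydrogenase, at 146 and 55.3 CPM. These 4 were among the 15 highest, while the list of oxidative phosphorylation genes had 0 of 27 past 1.5-fold.

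Others of the 15 have varied known roles. Ahnak2, a giant scaffold protein, stood at 22 and 3.49 CPM (log2 ratio 2.66), and Robo3, a member of the Robo family of axon guidance receptors, at 38.2 and 8.09 CPM (log2 ratio 2.24). Crip2, a LIM domain protein, stood at 118 and 37.9 CPM. Perp, a p53-induced membrane protein, stood at 68.3 and 20.7 CPM and was above 0 in 50.1% against 22.9% of cells. Dcxr, a reductase of dicarbonyls and xylulose, stood at 376 and 128 CPM, and Acot1, an acyl-CoA thioesterase, at 31.0 and 9.36 CPM. Cd68, 1700007K13Rik, BC026585 and the F-box gene Fbxw9 were also among the 15, with log2 ratios of 1.80, 2.16, 1.51 and 1.36.

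The lowest ratio was that of Ly6c2, a surface antigen of effector and memory CD8 T cells, which stood at 8.76 CPM with H2-Eb1 and 24.6 CPM without (log2 ratio -1.49). Gzma, the killer protease granzyme A, stood at 34.7 and 91.1 CPM (log2 ratio -1.39), above 0 in 11.2% against 16.9% of cells. Gzmb, which encodes granzyme B, stayed between the thresholds at 2408 and 2686 CPM.

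The metallothioneins Mt1, Mt2 and Mt3, which bind zinc and copper, were all among the 15 lowest. Mt1 stood at 230 and 420 CPM, Mt2 at 144 and 303 CPM and Mt3 at 11.3 and 20.5 CPM. Bnip3, a hypoxia-induced mitophagy receptor, stood at 26.3 and 52.7 CPM, Egln3, an oxygen-sensing hydroxylase, at 15.8 and 26.3 CPM, and Slc16a3, a lactate exporter, at 13.7 and 27.2 CPM. Tnfrsf9, the costimulatory receptor 4-1BB, stood at 77.8 and 133 CPM. Slc7a5, a transporter of large amino acids, stood at 16 and 28 CPM, and Bzrap1 at 10.9 and 20.3 CPM.

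**Figure D3:**
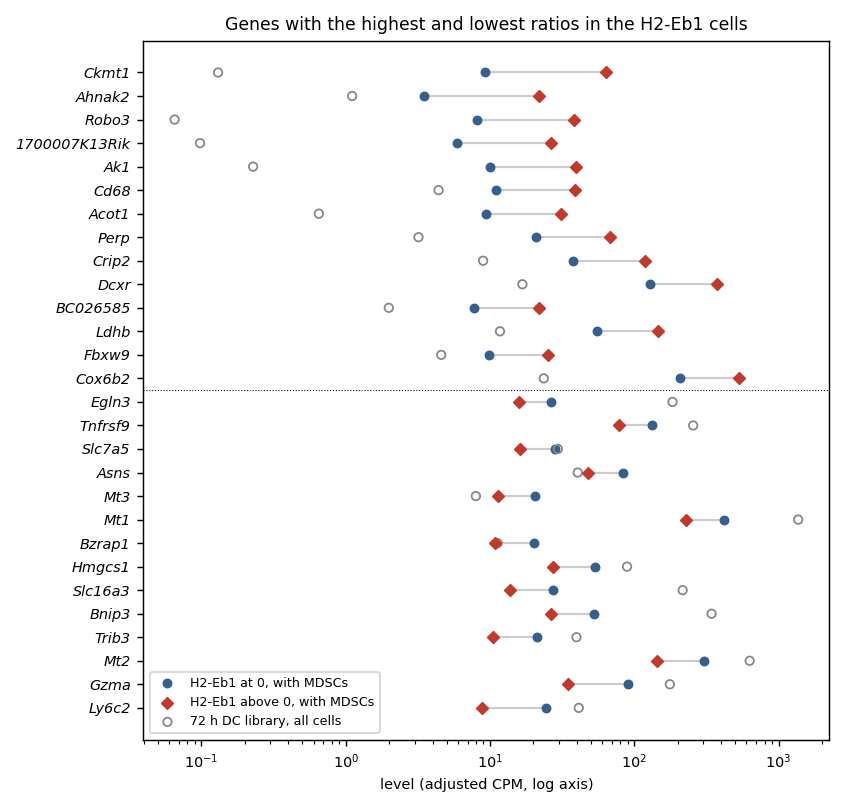
Levels (x axis, adjusted CPM, log scale) of 14 of the 15 genes with the highest and 14 of the 15 with the lowest ratio, for cells with H2-Eb1 (red diamonds), cells at 0 of the same library (blue circles) and all cells of the 72 h library without MDSCs (open grey circles). Ckmt1 stood at 64.1, 9.25 and 0.130 CPM. All 14 upper genes are lowest without MDSCs.

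Several lists lay to one side of 0. They are described by their counts, to be read against the 3.08% higher and 0.944% lower of all genes at 5 CPM or more. Cholesterol synthesis had the lowest median log2 ratio, -0.54 over 21 genes, with 7 past 1.5-fold lower and 0 higher. Hmgcs1, an enzyme early in the mevalonate pathway, stood at 27.3 and 53 CPM. Glycolysis followed with -0.46 over 17 genes, 3 of them past 1.5-fold lower, among them Slc16a3 and Aldoc (15 and 23.9 CPM). Hypoxia targets had a median of -0.40 over 13 genes, with 3 lower, including Bnip3 and Egln3.

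The integrated stress response, the program by which ATF4 answers amino acid shortage and other stress, had a median log2 ratio of -0.44 over 19 genes, with 5 lower and 0 higher. Asns, which makes asparagine, stood at 48.0 CPM with H2-Eb1 and 84.1 CPM without, and Trib3, a pseudokinase induced by that program, at 10.5 and 21.2 CPM. Not all its genes lay lower: Ddit3, the factor CHOP, stood at 40.0 and 34.6 CPM. Chaperones had a median of -0.29 and ribosome biogenesis genes of -0.22, with 0 past 1.5-fold in either.

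Of the cell cycle lists, S phase genes lay slightly lower. All 28 S phase genes had ratios below 0 on the log2 scale, with a median of -0.26 and 0 past 1.5-fold. The median of 32 G2 and M phase genes was -0.07, near the -0.03 of all genes at 5 CPM or more. It was -0.009 with the total free of ribosomal and mitochondrial genes and -0.002 with centred ratios. With the library cut into 3 equal sets by the sum of S, G2 and M phase genes, H2-Eb1 was above 0 in 32.2% of the cells with the lowest sums and in 22.5% of each of the other sets. By G2 and M phase genes alone the shares were 31.0, 21.3 and 24.9%, from the lowest sums to the highest. Mki67, a proliferation marker, was above 0 in 55.8% of the cells with H2-Eb1 and 62.7% of the others.

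Targets of p53 were the list with the highest median log2 ratio, 0.43, with all 13 genes above 0 and 5 past 1.5-fold higher. Besides Perp they included Mdm2, the ubiquitin ligase that restrains p53, at 74.0 and 44.8 CPM. The 26 interferon response genes had a median of 0.22, with 4 higher and 1 lower. Those past 1.5-fold, named after their values were seen, were Ifitm3 (15.4 and 7.02 CPM), Isg15 (9.94 and 6.03 CPM), Irf7 and Usp18, against Ifitm1 (3.30 and 10.6 CPM). Irf8, an interferon-responsive factor, stayed between the thresholds at 115 and 114 CPM. The medians given for these lists had the same sign with the total free of ribosomal and mitochondrial genes, with centred ratios and within the 3 sets of genes above 0 per cell.

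**Figure D4:**
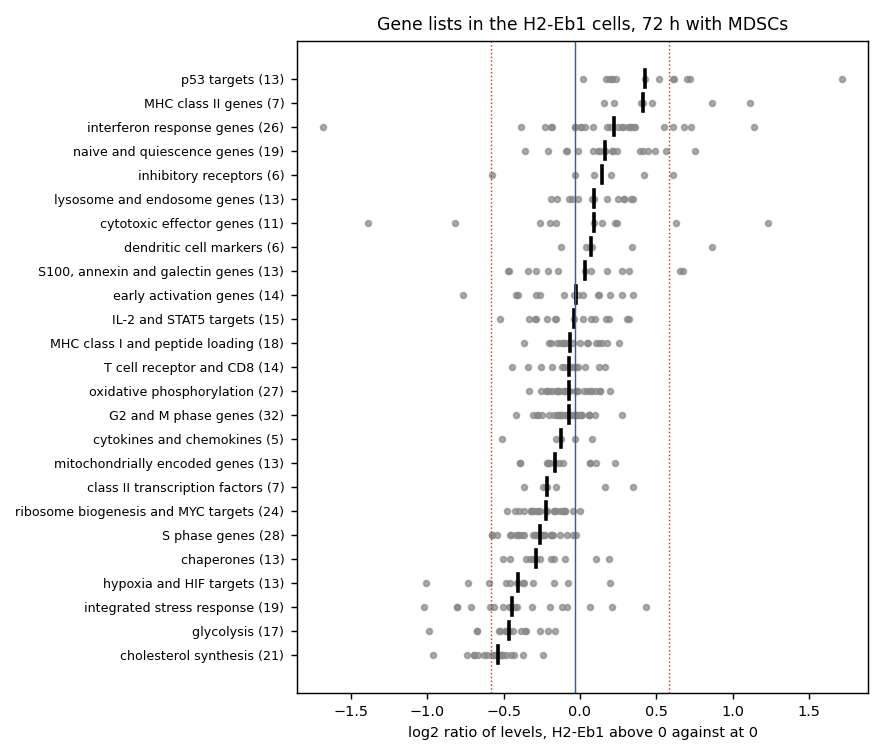
Log2 ratios of levels, cells with H2-Eb1 against cells at 0 (x axis), for the members at 5 CPM or more of each list (grey points, number in parentheses) with the list's median (black bar). Dotted red lines mark 1.5-fold and the blue line the median of all genes at that level, -0.03. Cholesterol synthesis has the lowest median, -0.54, and p53 targets the highest, 0.43, just above MHC class II genes at 0.42.

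Among T cell state genes the differences were mixed. Their counts stand beside 3.08% higher and 0.944% lower among all genes at 5 CPM or more. Of 11 cytotoxic effector genes 2 were higher and 2 lower: Gzmf stood at 25.4 and 10.8 CPM and Gzmc at 29.0 and 18.8 CPM, opposite to Gzma and to Fasl (3.74 and 6.60 CPM). Of 19 naive and quiescence genes 1 was higher, Dapl1 (114 and 67.6 CPM), while Tcf7, a factor of naive and memory cells, stood at 81.6 and 62.1 CPM and Il7r at 62.5 and 63.2 CPM. Of 6 inhibitory receptors 1 was higher, Btla (14.4 and 9.46 CPM), and Ctla4 stood at 35.1 and 52.3 CPM. Of 13 S100, annexin and galectin genes 2 were higher and 0 lower. These were the calcium-binding proteins S100a4 (173 and 109 CPM) and S100a6 (3603 and 2286 CPM). The median log2 ratio of the 13 was 0.03, with 7 above 0 and 6 below.

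These subsets crossed H2-Eb1 to different degrees. H2-Eb1 was above 0 in 32.0% of the cells with S100a4 and 22.8% of those without, in 18.7% with Gzma and 27% without, and in 20.4% with Asns and 32.6% without. For Il7r the shares were 26.3 and 25.1%. With Ckmt1 the share was 58.4%, and without it 18.3%.

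The differences followed the H2-Eb1 value within the selected cells as well. Over the steps from 0 to 1, 2 and 3 or more, the level of each of the 15 highest genes was higher at every step, and that of 14 of the 15 lowest was lower at every step, Gzma being the exception. Ckmt1 was above 0 in 10.4, 28.8, 46.4 and 67.8% of cells over these steps, and its level was 9.25, 31.9, 64.8 and 135 CPM. Ahnak2 was above 0 in 4.93, 11.9, 22.8 and 39.9%, and Cd68 in 13.4, 24.3, 36.7 and 57.3%. Hmgcs1 went the other way, at 46.6, 33.0, 29.1 and 18.6%. Cells at an H2-Eb1 value of 1 thus lay between the cells at 0 and those with more. The genes were chosen on the same cells, so these steps describe the choice in more detail and are no separate evidence.

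Class II and DC genes differed from each other in this respect. The level of Cd74 was higher at every step, at 11.7, 22.4, 27.7 and 30.2 CPM, while it was above 0 in 10.8, 19.4, 21.5 and 17.3% of cells. H2-DMa and H2-Oa were higher at every step in both measures, with H2-Oa above 0 in 35.3, 42.7, 46.8 and 52.9% of cells. Ctsh was too, from 0.109 to 4.33%, at levels under 5 CPM. H2-Ab1, at 18.7, 20.8, 19.8 and 25.4%, and H2-Aa, at 0.163, 0.843, 0.422 and 2.48%, formed no such steps. Batf3 was at 52.1, 58.1, 56.1 and 44.0%, and Cst3 at 89.2, 89.5, 85.7 and 89.5%.

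**Figure D5:**
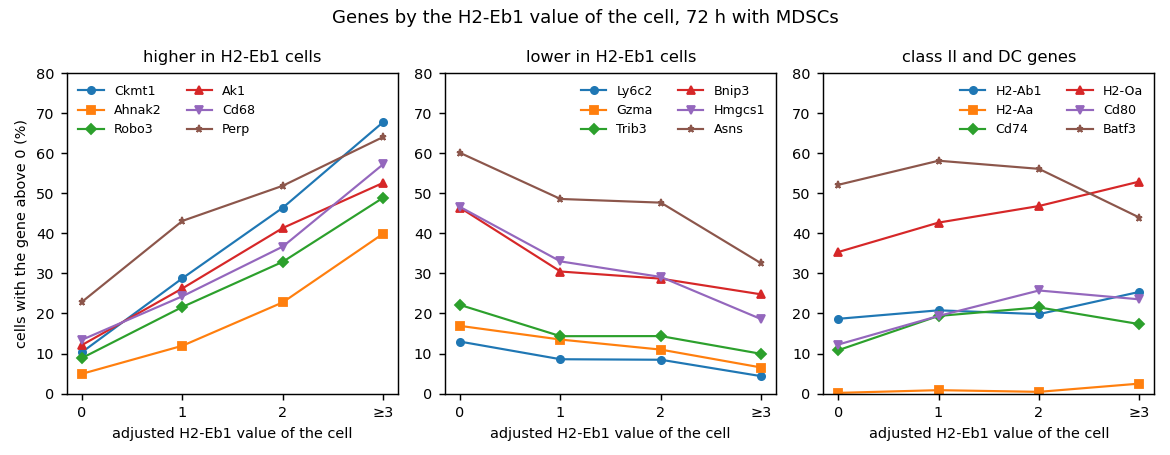
Share of cells with a gene above 0 (y axis, percent) by the adjusted H2-Eb1 value of the cell (x axis: 3670 cells at 0, 712 at 1, 237 at 2 and 323 at 3 or more), for genes among the 15 highest (left), among the 15 lowest (middle) and class II and DC genes (right). Ckmt1 goes from 10.4 to 67.8%, Hmgcs1 from 46.6 to 18.6% and Cd74 from 10.8 to 17.3% with a higher value between.

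Pairs of the 15 highest genes co-occurred in cells without H2-Eb1 too: Robo3 was above 0 in 27.4% of such cells with Ckmt1 and in 6.75% of those without it. Among the cells with H2-Eb1 the same shares were 45.3 and 20.1%. The number of the 15 above 0 per cell describes the sets further, but its difference between them was fixed by the choice of the genes on these cells. The median number was 3 at an H2-Eb1 value of 0 and 5, 7 and 9 at values of 1, 2 and 3 or more, and 8 or more were above 0 in 36.6% of the cells with H2-Eb1 against 5.86% of the others. By the same choice, H2-Eb1 was above 0 in 7 of the 186 cells with none of the 15 (3.76%) and in 117 of the 133 cells with 12 or more (88.0%). No clustering was made.

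By rank correlation over the 4942 cells, the genes most like H2-Eb1 were Cox6b2 (Spearman's rho 0.448), Dcxr (0.443), Ckmt1 (0.404) and Ldhb (0.351), followed among others by the ribosomal protein genes Rps24, Rpl19 and Rps19 and by Cd81 and Serpine2 at 0.325 to 0.333. The cells share 1 library and their adjusted totals are nearly constant, so that a higher share of 1 gene lowers the others. Of the 4310 genes 122 had a rho of 0.2 or more in either direction, around a median of -0.02. The lowest was Aldoa, a glycolytic aldolase, at -0.335.

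Cells outside this library give the same genes in cells the rule did not use, though few had H2-Eb1. At 72 h without MDSCs the genes that led with MDSCs stood at low levels over all cells, with Ckmt1 at 0.130 CPM, Robo3 at 0.0652 CPM and Ak1 at 0.228 CPM. In its 31 cells with H2-Eb1, Ckmt1, 1700007K13Rik and Ak1 were not detected, which allows a share of up to 9.68%. In the other 1895 cells they were above 0 in only 0.158, 0.158 and 0.317%. Their absence from 31 cells thus does not tell whether they went with H2-Eb1. Robo3 and Ahnak2 were each above 0 in 1 of the 31 cells, and in 0.0528 and 1.53% of the others. The median number of the 15 genes above 0 was 1 in these 31 cells and 1 in the other 1895. By the sign of the ratio, 9 of the 15 highest were also higher and 14 of the 15 lowest also lower in the 31 cells, where 2664 of 4060 genes had the same sign in both libraries.

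Of the lowest genes, some differed within this library as well and others did not. Gzma stood at 26.6 CPM with H2-Eb1 and 179 CPM without, above 0 in 8 of 31 cells against 38.9%, and Hmgcs1 at 45.0 and 89.9 CPM. Bnip3 stood at 340 and 344 CPM and Mt2 at 598 and 631 CPM. H2-Aa was above 0 in 3 of the 31 cells and in 0.422% of the others, and H2-Ab1 in 90.3 and 88.6%. Of the genes at 20 CPM or more, 2 were past 1.5-fold on opposite sides in the libraries of 72 h, Akr1b10 and Gna15, both higher in the cells with H2-Eb1 with MDSCs. With 31 cells, each of these values has a wide counting interval, 11.9 to 44.6% for the share with Gzma.

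In the table of all time points, each of the 15 highest genes stood highest in the library of the selected cells, by different margins. They were chosen in that library by a minimum of 20 CPM in either set, so a high level there was partly built in. Ckmt1 stood at 24.2 CPM at 72 h with MDSCs and at 0.29 CPM or less in the other 4 libraries, and Robo3 at 16.4 CPM against 0.70 CPM or less. Dcxr stood at 194 CPM against 13.7 CPM or less, and Cox6b2 at 295 CPM against 17.4 CPM or less. The margins were smaller for Perp (33.9 CPM against 17.1 or less), Crip2 (59.8 against 22.5 or less) and Fbxw9 (14.5 against 6.71 or less). At 24 h with DCs, 0 of the 24 cells with H2-Eb1 had Ckmt1, Robo3 or Ak1, which allows a share of up to 12.5%. In the other 1538 cells these genes were above 0 in 0.390, 0.780 and 0.975%, too rarely for 24 cells to tell. Perp was above 0 in 8 of the 24 and in 17.0% of the others.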

How the data were processed

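Sorted cells were made into 10x droplet libraries, per the labels' protocols. The submitters' processing notes name Seurat, Cell Ranger 2.0.1 and build mm10, with no account of what each did. The deposited values are natural log values of 1 plus a whole number, to within 1e-06, in 3 tables adjusted separately by the authors by a method not given in the sources used here. Totals per cell varied by 3.50% in the library described, so molecule depth is unknown and no count model was used, although the design had allowed for counts. Cells were assigned to libraries by the deposited annotation. Doublets were not treated.

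Whole numbers were recovered as exp(value) - 1 and summed over cells in Python 3.11.15 (numpy 2.4.6, scipy 1.17.1). Lists were read at 5 CPM or more in either set. Named genes were all class II genes, class II factors and DC markers, the 15 largest ratios in each direction at 20 CPM or more, the 2 largest of every other list in each direction, a fixed set of T cell and myeloid genes, the 10 genes best correlated with H2-Eb1, and genes on opposite sides in the libraries of 72 h. The members and the 32 gene lists were chosen with earlier results of these data known. The 1.5-fold rule was also tested on simulated data. Alternatives were another table, threshold, scale, total, centring, minimum level, depth strata and marker count. Positions are from GENCODE M21, where 13160 of 13601 symbols were found. Some named genes are not reported here.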

Additional observations from a re-analysis of the deposited data

How the results depend on the processing

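The 1.5-fold calls of all 32 named genes past that size among the 54 recomputed were kept under the 7 alternatives run on single genes, and 0 reversed. These include the 15 highest and the 15 lowest, taken for the largest ratios in these same cells. That their calls were kept was thus largely set by the choice and says little of genes nearer the threshold. At an H2-Eb1 value of 2 or more, 2 further genes passed 1.5-fold, 11.3% of the library was selected, 205 genes were higher and 174 lower, and the class II median log2 ratio was 0.53. Counts of higher and lower genes were 40 and 20 at a minimum of 50 CPM and 1614 and 785 with no minimum, where genes of a few values enter. With the total free of ribosomal protein and mitochondrial genes 167 were higher, and with centred ratios 25 were lower; the cause was not tested beyond the change of total. Under the other settings run, higher genes numbered 72 to 107 and lower genes 31 to 52. The difference in cells with DC markers, -0.0125 percentage points at 3 or more, was 2.09 at 2 or more and 8.07 with all measured markers. It was 0.10 at 2 or more with Cd80 left out, an alternative chosen after seeing the data. No paired analysis was possible because each group was 1 library and no result comes from a test. Molecule depth is unknown, free RNA in droplets could not be measured, and the effect of MDSCs cannot be told apart from differences between cultures or libraries.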
